A study of Mus musculus with 8 samples.

Results

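Glycolysis and hypoxia-response genes form a set of 35 genes that were listed by name, running from glucose uptake through the glycolytic enzymes and lactate handling to oxygen sensing and genes that low oxygen induces. A gene counted as measured where at least 1 probe set on the array was annotated to it alone, and where several were, the one with the brightest average over all 8 arrays stood for it. By that rule 33 of the 35 listed genes were measured, of 18194 genes in all. Gpi1 and Eno1 had no probe set annotated to them alone, and their expression was not analysed here. Of the 33, 30 passed the filter on low values (at least 2 arrays at or above log2 5, the level taken here as background) and were tested among 8174 genes. Aldoc, an aldolase, P4ha2, a collagen prolyl hydroxylase subunit, and Adm, the adrenomedullin hormone, stayed under log2 5 on every array, with values of 2.79 to 3.52, 2.25 to 2.72 and 2.97 to 4.52.

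Glycolysis splits glucose to pyruvate and yields ATP without oxygen, and lactate dehydrogenase turns pyruvate into lactate where oxygen or mitochondrial capacity is short. In low oxygen the prolyl hydroxylases of the Egln family stop marking the Hif1a protein for destruction, and the stabilised protein binds DNA with its partner Arnt and induces glucose transporters, glycolytic enzymes and a set of stress genes. Granulocytes have few mitochondria and live largely on glycolysis, and tumors and inflamed colon are known for low oxygen.

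All 4 groups were C57BL/6J mice whose myeloid cells were sorted on CD11b and Gr-1, surface proteins of granulocytes and monocytes. The wild-type groups carried the HDC-EGFP transgene, a fluorescent reporter for Hdc, the gene of the histamine-making enzyme histidine decarboxylase, and the HDC-KO groups carried HDC-EGFP on an HDC-KO background. The controls are therefore transgenic too. The bone marrow groups were HDC-expressing cells from femur and tibia of 3 mice per genotype aged 3 to 4 months, with no tumor induction stated. The tumor groups came from 5 mice per genotype aged 7 months that received a single dose of azoxymethane, a carcinogen, and then 10 days of dextran sodium sulfate, an irritant of the gut lining, with 10 to 12 colon tumors taken 22 to 24 weeks later and pooled. The labels state no EGFP gate for the tumor cells, so tissue, age, treatment and gate cannot be told apart between tumor and bone marrow. Each group was 1 pool of RNA on 2 technical arrays, although the labels leave pooling open for bone marrow. Every limma p below therefore sets a difference between pools beside the technical scatter of repeat arrays, and no scatter between mice was measured.

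Hdc itself, checked as the targeted gene, averaged log2 13.18 in wild-type marrow, 9.83 in HDC-KO marrow, 13.24 in wild-type tumor and 13.03 in the tumor pool labelled HDC-KO. The marrow labels were borne out, whereas the tumor pool labelled HDC-KO held nearly the wild-type level, so its genotype is given below as a label only. Granulocyte markers had all 8 measured members above background in each pool. Their summed level was log2 17.14 to 17.16 in the tumor pool labelled HDC-KO and 17.30 to 17.35 on the other arrays. Markers of other cells also differed between the tumor pools. A marker is counted as higher or lower below where its limma adjusted p was under 0.05 and the difference at least 2-fold. Of all tested genes, 15.5% were higher and 10.5% lower by that rule. No granulocyte marker was higher or lower by it between the tumor pools. At that p without the 2-fold demand, 4 of 8 were lower and 1 higher, beside 34.4% and 38.4% of all tested genes. Itgam, the gene of CD11b, was lower by the rule in the tumor pool labelled HDC-KO than in HDC-KO marrow. The 10 colon epithelium markers summed to log2 7.60 to 7.91 in the marrow pools, where 9 of 10 were under log2 5. They summed to 12.24 to 12.26 in wild-type tumor and to 14.54 to 14.62 in the tumor pool labelled HDC-KO. By the rule 9 of 10 were higher in the latter than in wild-type tumor, and all 10 were at that p without the 2-fold demand. Monocyte and macrophage markers summed to 13.72 to 13.76 and 14.77 to 14.85 in the same tumor pools. By the rule 6 of 8 measured members were higher, and all 8 were at that p without the 2-fold demand. Granulocyte precursor markers (12.32 to 12.33 against 9.27 to 9.32) were lower in 5 of 5 and cell cycle markers (13.91 to 13.94 against 11.35 to 11.38) in 7 of 7 measured members. MHC class II and dendritic markers were higher in 5 of 5 tested members. Flt3 was measured but not tested, and Ciita averaged under log2 5 in both marrow pools and in wild-type tumor. T and NK markers summed to 8.17 to 8.21 against 10.97 to 10.98, with 2 of 3 tested members higher. B and plasma markers summed to 12.48 to 12.53 against 13.29 to 13.35, with 2 of 3 higher. Erythroid markers summed to 7.36 to 7.38 against 9.60 to 9.68, with 2 of 2 higher. In these lists Cd3e, Cd8a, Cd4, Cd79a, Hba-a1 and Klf1 averaged under log2 5 in every pool. Cd3g and Alas2 did so in every pool but the tumor pool labelled HDC-KO. All 8 stroma markers stayed under log2 5 in every pool. The array probe sets for Bacillus subtilis transcripts that are commonly added before labelling also stood apart. Their median over 24 probe sets was log2 6.22 to 6.41 on the marrow arrays, 6.85 to 6.91 in wild-type tumor and 8.49 to 8.58 in the tumor pool labelled HDC-KO, whereas the 18 hybridization controls differed by a median of -0.02 between the tumor pools. The excess of 3′ over 5′ signal for Actb, a sign of RNA breakdown, was 0.67 and 0.68 on the arrays labelled HDC-KO tumor and 0.47 to 0.53 on the other 6. The part of these differences in the results below was not tested.

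**Figure D1:**
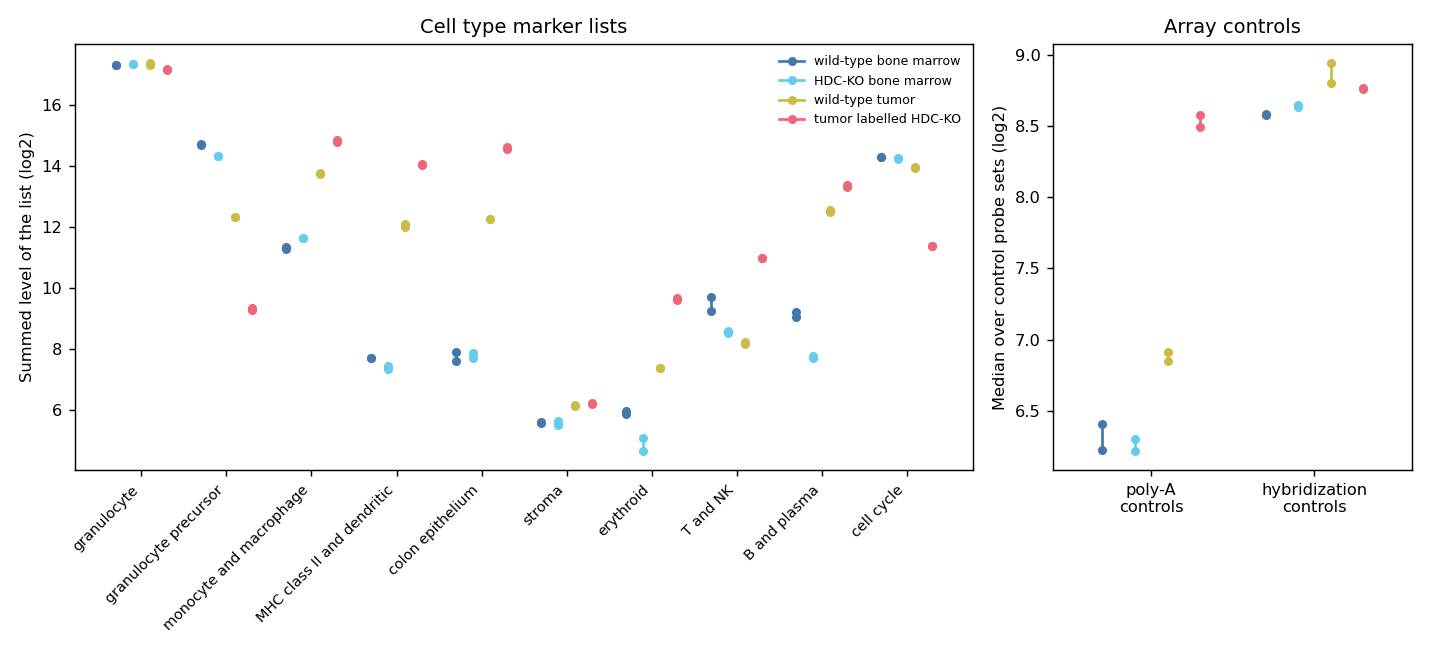
The left panel plots, on the y axis, the summed log2 level of each cell type marker list (x axis) on each of the 8 arrays, coloured by pool, and the right panel plots the median log2 value of the poly-A and hybridization control probe sets. Colon epithelium markers reached 14.54 to 14.62 and poly-A controls 8.49 to 8.58 in the tumor pool labelled HDC-KO, above the other 3 pools, while the hybridization controls lay between 8.58 and 8.94 on all arrays.

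Most enzymes of glycolysis stayed within 2-fold in every comparison, and most members past that size were genes induced by low oxygen or of lactate and pyruvate handling. The tumor pool labelled HDC-KO held more Ddit4, Ankrd37, P4ha1, Egln3 and Pdk1 RNA than the wild-type tumor pool and less Hk3 and Ero1a RNA. Both tumor pools held more Slc2a1, P4ha1 and Ddit4 RNA than the marrow pool of the same genotype. In bone marrow, the HDC-KO pool had less Ldhc and Ddit4 RNA than wild-type cells. A gene is called changed, here and below, where the limma adjusted p over all 8174 tested genes was under 0.05 and the difference was at least 2-fold (log2 1).

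Counts of called members stood near those of all genes. Between the tumor pools 5 members rose and 3 fell of 30 tested (26.7%), beside 26% of all tested genes (15.5% higher, 10.5% lower). Among the 3, Ldhc lay under background in both tumor pools, and 2 fell with values raised to log2 5. In bone marrow no member rose and 2 fell, 6.67% beside 3.82% of all genes (1.8% higher, 2.02% lower), and 11 of 30 had an unadjusted limma p under 0.05, beside 35.1% of all tested genes. From marrow to tumor in wild-type mice 3 rose and 2 fell, 16.7% beside 16.4% (11.6% higher, 4.81% lower). In the pools labelled HDC-KO 9 rose and 3 fell, 40% beside 36.5% (21.1% higher, 15.4% lower). The genotype difference itself was unequal in tumor and marrow for 8 members, 6 with a higher value in tumor and 2 with a lower one, 26.7% beside 28.5% (16.8% and 11.7%). These counts include Ankrd37 and Ldhc, which passed the filter only through the pool where each was high, and Pfkl, which passed only through tumor arrays. The set as a whole did not stand apart by its counts, and its median differences lay near those of all genes, at -0.16 beside 0.03 between the tumor pools and -0.05 beside -0.00 between the marrow pools. The results are differences between single genes and roles within the set. Since these are bulk RNA pools, fewer cells of a type and less RNA per cell cannot be told apart.

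**Figure D2:**
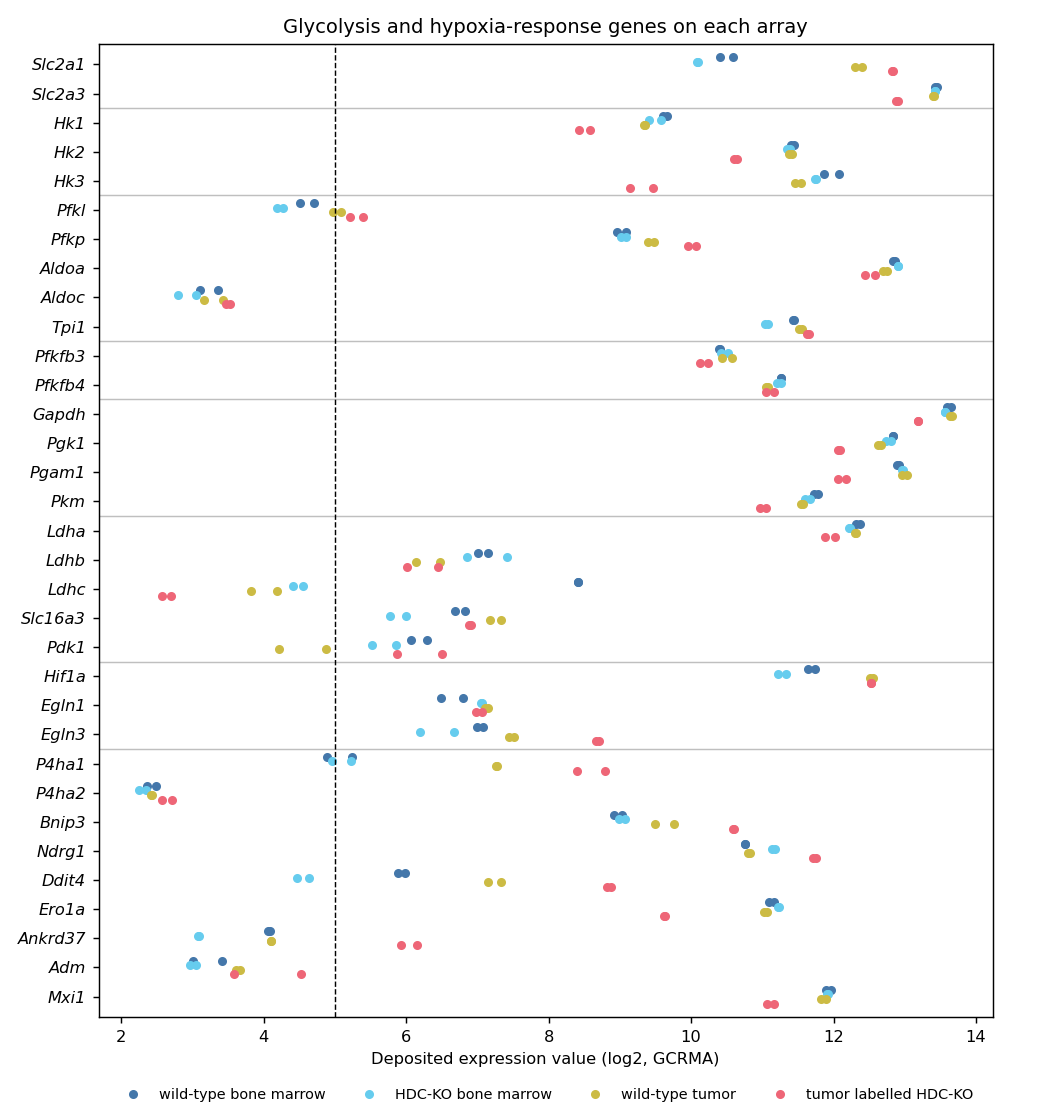
The deposited log2 value (x axis) of the 33 measured genes on each of the 8 arrays, coloured by pool, with grey lines between roles and a dashed line at log2 5. Points of 1 pool nearly coincide for most genes, and Ldhc, Ddit4, P4ha1 and Ankrd37 spread widest between pools.

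Between the tumor pools the hypoxia-induced genes had 4 of 7 tested members called (3 higher, 1 lower), beside 26% of all tested genes (15.5% higher, 10.5% lower). Ankrd37 is counted among the 3, although it passed the filter through the tumor pool labelled HDC-KO alone and so had to differ. The promoters of 5 members called between the tumor pools are printed here so that their DNA can be read beside the values. Egln3, Pdk1 and Ldhc were called there too, and their windows are given by counts alone. The sequences are RefSeq's on GRCm38.p6, 300 bases around the annotated start, 5′ to 3′ on the gene's strand, with capitals for ACGTG and GCGTG, the core letters that Hif1a with Arnt is known to bind, on either strand and with overlapping matches joined. Ddit4 lies at chr10:59951721-59952020 on the minus strand, Ankrd37 at chr8:45999801-46000100 on the minus strand, P4ha1 at chr10:59323046-59323345 on the plus strand, Ero1a at chr14:45318523-45318822 on the minus strand and Hk3 at chr13:55021336-55021635 on the minus strand.
Ddit4: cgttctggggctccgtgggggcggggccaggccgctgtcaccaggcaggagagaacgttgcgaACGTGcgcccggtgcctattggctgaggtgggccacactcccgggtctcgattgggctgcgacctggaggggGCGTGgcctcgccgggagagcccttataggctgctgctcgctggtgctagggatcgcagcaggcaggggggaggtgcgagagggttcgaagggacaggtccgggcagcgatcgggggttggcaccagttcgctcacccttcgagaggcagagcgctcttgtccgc
Ankrd37: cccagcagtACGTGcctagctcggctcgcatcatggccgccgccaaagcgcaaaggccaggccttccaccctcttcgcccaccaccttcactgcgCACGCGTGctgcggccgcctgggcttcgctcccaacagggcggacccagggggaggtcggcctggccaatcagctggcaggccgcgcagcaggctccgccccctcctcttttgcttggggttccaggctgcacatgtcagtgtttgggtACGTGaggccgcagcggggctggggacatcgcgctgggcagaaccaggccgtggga
P4ha1: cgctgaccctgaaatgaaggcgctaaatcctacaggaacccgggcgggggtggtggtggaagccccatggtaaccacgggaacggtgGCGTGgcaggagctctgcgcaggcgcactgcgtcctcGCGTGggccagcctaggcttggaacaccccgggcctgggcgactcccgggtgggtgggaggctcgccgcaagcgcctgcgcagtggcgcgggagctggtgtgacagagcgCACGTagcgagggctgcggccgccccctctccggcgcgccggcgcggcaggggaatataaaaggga
Ero1a: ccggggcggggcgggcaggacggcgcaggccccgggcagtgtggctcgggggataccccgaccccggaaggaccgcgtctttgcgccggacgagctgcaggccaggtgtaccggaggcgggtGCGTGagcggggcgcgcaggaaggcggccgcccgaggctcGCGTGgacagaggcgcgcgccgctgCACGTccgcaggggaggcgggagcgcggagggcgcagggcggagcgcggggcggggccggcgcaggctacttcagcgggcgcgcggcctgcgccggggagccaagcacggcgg
Hk3: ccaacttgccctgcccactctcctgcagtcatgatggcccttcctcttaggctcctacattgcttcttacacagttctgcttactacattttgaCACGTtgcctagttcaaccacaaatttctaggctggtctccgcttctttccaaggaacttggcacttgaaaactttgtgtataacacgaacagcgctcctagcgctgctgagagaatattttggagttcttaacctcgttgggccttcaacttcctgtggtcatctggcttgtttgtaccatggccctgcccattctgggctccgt
The first 3 belong to genes higher in the tumor pool labelled HDC-KO and the last pair to genes lower there. The Ankrd37 window held 2 matches of ACGTG and 2 of GCGTG, those of P4ha1 and Ero1a each held 1 and 2, that of Ddit4 held 1 and 1, and that of Hk3 held 1 ACGTG. Among the printed windows, genes that moved in opposite directions thus both carried the letters. Of the windows not printed, that of Egln3 held 1 ACGTG. The first windows of Pdk1 and Ldhc each held 2 GCGTG and no ACGTG, and their second windows held neither. Over the 46 promoter windows of 33 listed genes found in the table, 56.5% held ACGTG, beside 19.6% of all 32851 windows and 26.2% of the 8596 windows of tested genes. For GCGTG the shares were 56.5%, 32.4% and 50.4%. The 33 genes with a window took in Gpi1 and Eno1 and lacked Slc2a3 and Ndrg1, so they are not the 33 measured genes. Over the 38 windows of tested members alone, 63.2% held ACGTG and 50% held GCGTG, the latter close to the share in tested genes. A match of letters is a description of the window and not a binding site, and the genes were listed with hypoxia targets in mind.

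Ddit4, an inhibitor of mTORC1 signalling that low oxygen and other stresses induce, moved in opposite directions in the tissues. Its values were log2 5.99 and 5.88 in wild-type marrow, 4.63 and 4.47 in HDC-KO marrow, 7.33 and 7.14 in wild-type tumor, and 8.87 and 8.82 in the tumor pool labelled HDC-KO. No pool overlapped another, and the order ran from HDC-KO marrow, under background, to the tumor pool labelled HDC-KO. In tumor it rose 3.05-fold (log2 difference 1.61 ± 0.09, SE, limma adjusted p = 1.6e-05). In bone marrow it fell by at least 1.91-fold (-1.39 ± 0.09, limma adjusted p = 0.00025), a bound because the HDC-KO mean lay under log2 5. The difference between these differences was 2.99 ± 0.13 (limma adjusted p = 1.0e-05). From marrow to tumor it rose 2.47-fold in wild-type and at least 14.4-fold in the pools labelled HDC-KO.

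Ankrd37, an ankyrin repeat protein that hypoxia induces, was above background only in the tumor pool labelled HDC-KO. It read 4.08 and 4.06 in wild-type marrow, 3.10 and 3.08 in HDC-KO marrow, 4.10 and 4.11 in wild-type tumor, and 5.93 and 6.15 in the tumor pool labelled HDC-KO. The other 3 pools stayed under log2 5. Its pool mean was at least 2.06-fold higher there than in wild-type tumor, a log2 difference of 1.94. Ankrd37 passed the filter through the arrays of that pool alone, so it had to differ and no test is given for it. P4ha1, the catalytic subunit of a collagen prolyl hydroxylase, stood at 5.24 and 4.88, then 5.22 and 4.96 in the marrow pools of wild-type and HDC-KO mice, at 7.26 and 7.27 in wild-type tumor, and at 8.40 and 8.79 in the tumor pool labelled HDC-KO. The marrow pools overlapped and lay near background, and the tumor pools were apart from them and from each other. P4ha1 rose 2.52-fold between the tumor pools (1.33 ± 0.18, limma adjusted p = 0.00062), 4.60-fold from marrow to tumor in wild-type (limma adjusted p = 0.00012) and 11.4-fold in the pools labelled HDC-KO (limma adjusted p = 4.6e-06). Averaged over its probe sets, the tumor difference of P4ha1 was 0.71, under the 2-fold threshold. That average takes in a second probe set that lay under log2 5 on every array.

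Bnip3, a mitochondrial protein that promotes removal of mitochondria, and Ndrg1, a stress-response protein, came close to the threshold between the tumor pools. Bnip3 measured 8.92 and 9.03, then 8.99 and 9.08 in marrow, 9.50 and 9.76 in wild-type tumor, and 10.59 and 10.61 in the tumor pool labelled HDC-KO. Its difference between the tumor pools was 0.97 (1.96-fold, limma adjusted p = 0.00015), just under 2-fold, and in the pools labelled HDC-KO it rose 2.96-fold from marrow to tumor. Ndrg1 measured 10.75 and 10.76 in wild-type marrow, 11.18 and 11.14 in HDC-KO marrow, 10.83 and 10.80 in wild-type tumor, and 11.71 and 11.75 in the tumor pool labelled HDC-KO. Its arrays were higher in the HDC-KO pool of each tissue, by 0.40 in marrow and 0.91 in tumor, both under 2-fold. Without array 2 of wild-type tumor, Bnip3 passed between the tumor pools at 1.10.

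Ero1a, an oxidase that makes disulfide bonds in the endoplasmic reticulum and that hypoxia is known to induce, went the other way. It measured 11.16 and 11.10, then 11.22 and 11.23 in marrow, 11.02 and 11.06 in wild-type tumor, and 9.61 and 9.63 in the tumor pool labelled HDC-KO. The other 3 pools sat within a narrow band and only that pool was low. Between the tumor pools it fell 2.67-fold (-1.42 ± 0.05, limma adjusted p = 2.7e-06), and its 2 other probe sets that passed the filter were lower too, by -2.13 and -0.83, with 1 of them called. Mxi1, a repressor that opposes Myc, was lower by a log2 difference of -0.74 in the same pool without reaching 2-fold.

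**Figure D3:**
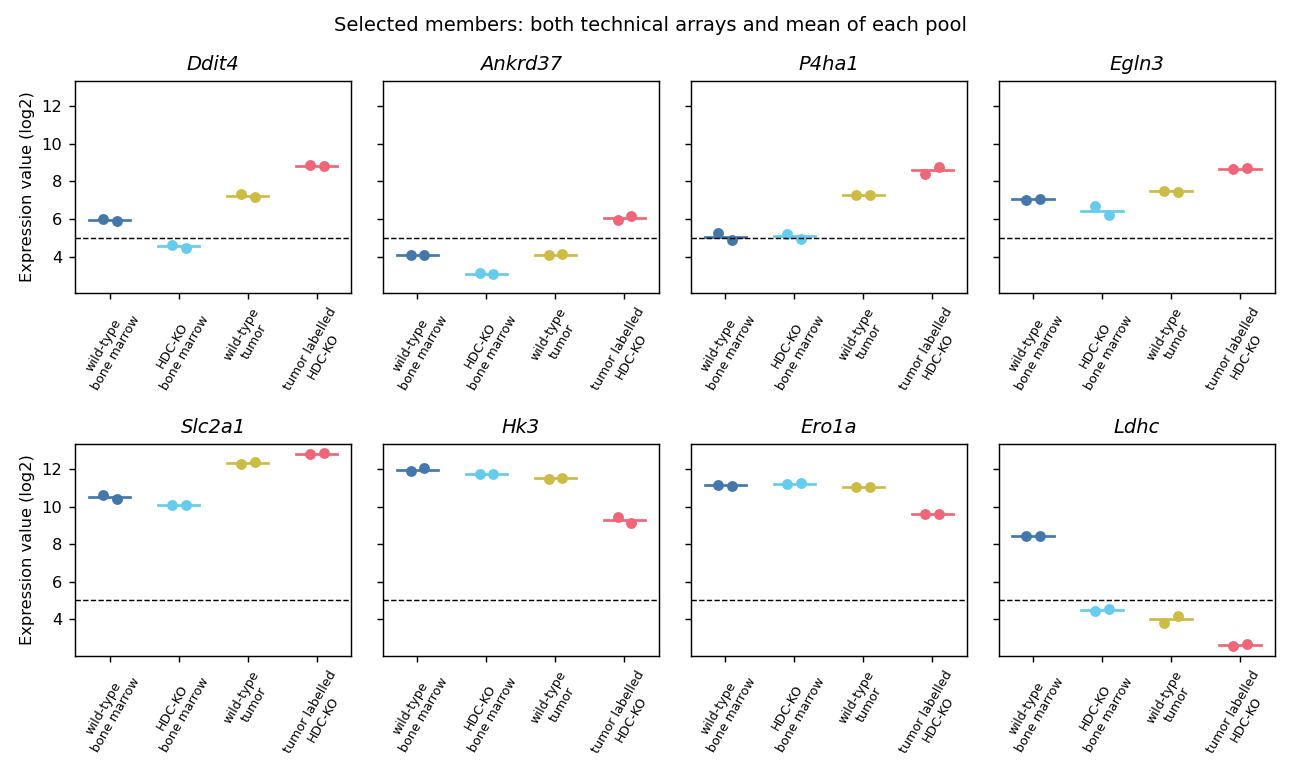
Values (y axis, log2) of 8 members on both technical arrays of each pool (points) with the pool mean (line) and background at log2 5 (dashed). Ddit4 and P4ha1 climb from marrow to tumor, Hk3 and Ero1a are low in the tumor pool labelled HDC-KO, and Ldhc is above background in wild-type marrow alone.

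Of the oxygen-sensing genes, Hif1a and Egln3 passed the test in at least 1 comparison. Hif1a, the oxygen-regulated subunit of the hypoxia factor, measured 11.74 and 11.64 in wild-type marrow, 11.22 and 11.34 in HDC-KO marrow, 12.56 and 12.52 in wild-type tumor, and 12.52 and 12.53 in the tumor pool labelled HDC-KO. The tumor arrays overlapped each other and lay above every marrow array. Its difference between the tumor pools was -0.01 (limma adjusted p = 0.91). From marrow to tumor it rose 2.38-fold in the pools labelled HDC-KO (1.25 ± 0.06, limma adjusted p = 5.1e-06), and differed by 0.85 in wild-type, under 2-fold. Averaged over its probe sets, the former difference was 0.64, also under 2-fold. That average takes in probe sets under log2 5 on every array, and the other probe set that passed the filter gave 1.22 and was called. Egln3, a prolyl hydroxylase that is itself a hypoxia target, measured 7.00 and 7.08, then 6.67 and 6.20 in marrow, 7.51 and 7.44 in wild-type tumor, and 8.66 and 8.71 in the tumor pool labelled HDC-KO. It was highest in that pool and lowest in HDC-KO marrow. Egln3 rose 2.31-fold between the tumor pools (1.21 ± 0.15, limma adjusted p = 0.00044) and 4.77-fold from marrow to tumor in the pools labelled HDC-KO. Its other probe set that passed the filter differed by 0.53 between the tumor pools and was not called. Egln1, the main prolyl hydroxylase, stayed between 6.49 and 7.15 on all 8 arrays and passed the test in none of the 5 comparisons.

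Of the glucose transporters, Slc2a1 passed the test between tissues and Slc2a3 passed it in no comparison. Slc2a1, the transporter GLUT1, measured 10.59 and 10.40 in wild-type marrow, 10.08 and 10.10 in HDC-KO marrow, 12.29 and 12.40 in wild-type tumor, and 12.81 and 12.84 in the tumor pool labelled HDC-KO. Both tumor pools were well above both marrow pools. Slc2a1 rose 3.60-fold in wild-type (1.85 ± 0.08, limma adjusted p = 6.8e-06) and 6.65-fold in the pools labelled HDC-KO (2.73 ± 0.08, limma adjusted p = 4.1e-07), and its other probe sets were called in the same direction. Slc2a3, the high-affinity transporter GLUT3, lay between 12.87 and 13.45 on all 8 arrays and passed the test nowhere, with a difference of -0.52 between the tumor pools.

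Among the hexokinases, which trap glucose as its phosphate, Hk3 alone passed the test. Hk3, a hexokinase of blood cells, measured 11.87 and 12.08 in wild-type marrow, 11.75 and 11.76 in HDC-KO marrow, 11.46 and 11.54 in wild-type tumor, and 9.46 and 9.14 in the tumor pool labelled HDC-KO. That pool stood far below the other 3, whose arrays did not reach under log2 11.46. Between the tumor pools Hk3 fell 4.59-fold (-2.20 ± 0.12, limma adjusted p = 1.4e-05), and the other probe set gave -1.84. Hk1 and Hk2 differed by -0.84 and -0.77 there, under 2-fold.

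Among the remaining enzymes on the way to pyruvate, Pfkl alone was called. Upper glycolysis had 4 tested members, and Pfkl, a phosphofructokinase, was called 1 time, from marrow to tumor in the pools labelled HDC-KO, where its bound was at least 1.23-fold because the marrow mean lay under background. That call was lost with quantile normalization (0.83) and without array 1 of the tumor pool labelled HDC-KO (0.98). Pfkp, the other phosphofructokinase tested, differed by 0.58 between the tumor pools, Aldoa, an aldolase, by -0.21 and Tpi1, the triose phosphate isomerase, by 0.11. From marrow to tumor in the pools labelled HDC-KO they differed by 0.96, -0.40 and 0.59, each under 2-fold. Tpi1 also differed by -0.38 between the marrow pools (limma adjusted p = 0.0033). Of the enzymes that set fructose 2,6-bisphosphate, an activator of phosphofructokinase, Pfkfb3 lay between 10.13 and 10.57 and Pfkfb4 between 11.05 and 11.26 on the 8 arrays. Neither was called in any comparison.

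Lower glycolysis showed 1 shared direction that stayed under 2-fold. Gapdh, Pgk1, Pgam1 and Pkm, the enzymes from glyceraldehyde phosphate to pyruvate with Eno1 left out, differed by -0.46, -0.57, -0.89 and -0.55 between the tumor pools, each with a limma adjusted p under the threshold. Their arrays in the tumor pool labelled HDC-KO lay below every other array. In bone marrow their differences ran from -0.12 to 0.06 and none had an adjusted p under 0.05. Counted at that p without the 2-fold demand, 15 of 30 members were lower and 10 higher between the tumor pools, beside 34.4% and 38.4% of all tested genes (72.8% either way). Gapdh was read from a 3′ control probe set of the array.

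**Figure D4:**
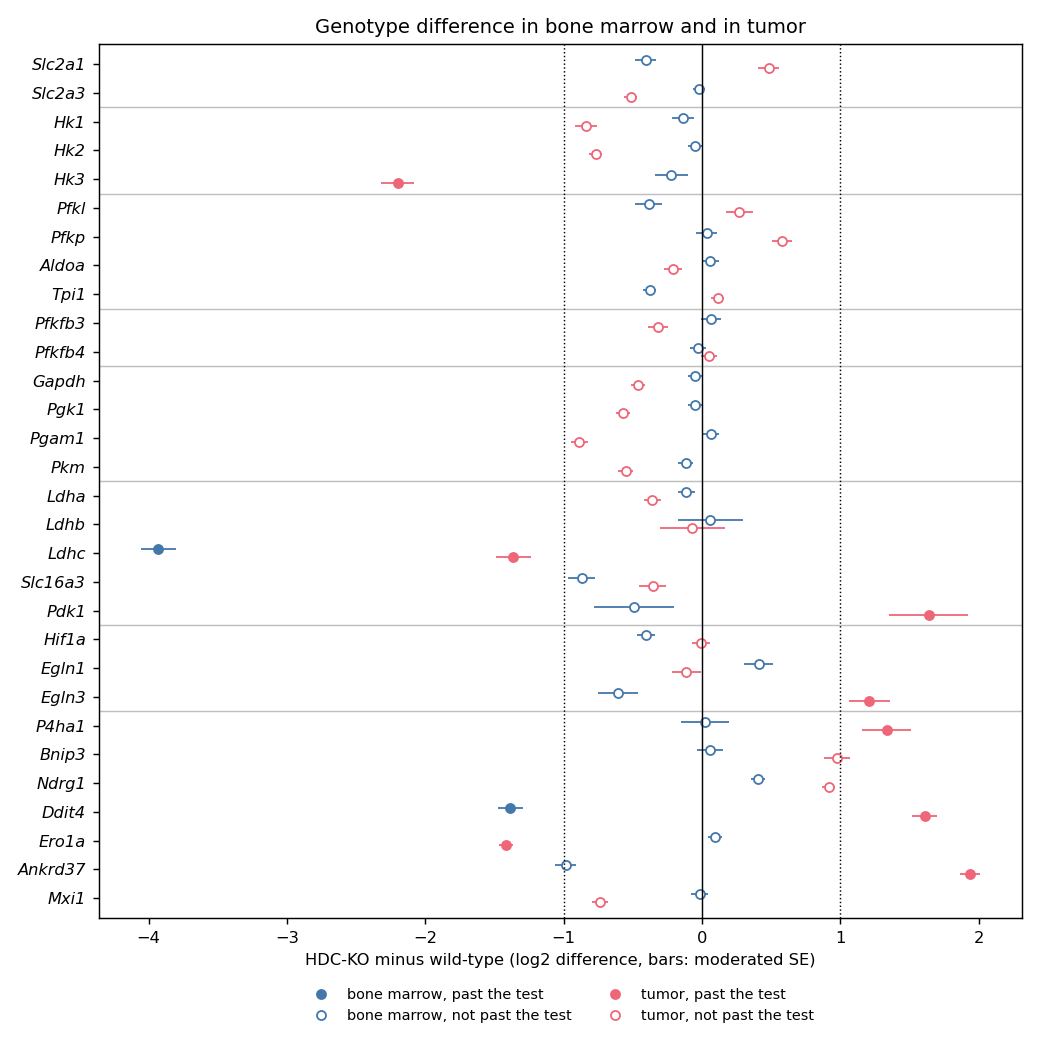
The log2 difference of HDC-KO minus wild-type (x axis) for the 30 tested genes in bone marrow (blue) and tumor (red), with bars for limma's moderated SE, filled points for genes past the test, and dotted lines at 2-fold. Ldhc and Ddit4 are the filled points in marrow, and 5 genes lie right and 3 left of the lines in tumor. Ldhc and Ankrd37 passed the filter only through the pool where each was high, so their points are descriptions and not tests. Both tumor means of Ldhc lay under background.

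Among the genes of lactate and pyruvate handling, Ldhc alone reached 2-fold between the marrow pools. Ldhc, a lactate dehydrogenase known from testis, measured 8.41 and 8.42 in wild-type marrow, 4.41 and 4.55 in HDC-KO marrow, 3.82 and 4.18 in wild-type tumor, and 2.57 and 2.70 in the tumor pool labelled HDC-KO. Wild-type marrow was the only pool above background. Ldhc was at least 10.7-fold lower in HDC-KO marrow (log2 difference -3.93), and the same bound held for wild-type tumor against wild-type marrow. It passed the filter through the wild-type marrow arrays alone, so it had to differ and no test is given for it. Its second probe set gave -4.38 for the marrow genotype difference. No fold is given between the tumor pools, where both means lay under background. Ldha, its neighbour on chromosome 7 and the common lactate dehydrogenase subunit, measured 12.37 and 12.31, then 12.23 and 12.22 in marrow and differed by -0.11. Among the 8 nearest genes by order on that chromosome, chosen after Ldhc was seen, 7 were tested, their marrow differences ran from -0.41 to 0.31 and none was called, with Saa2 under the filter.

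Ldhb, the other common subunit, ranged from 6.01 to 7.42 and was not called. Slc16a3, the lactate exporter MCT4, measured 6.83 and 6.69 in wild-type marrow, 5.78 and 6.00 in HDC-KO marrow, 7.18 and 7.33 in wild-type tumor, and 6.88 and 6.92 in the tumor pool labelled HDC-KO. HDC-KO marrow was lowest, at a difference of -0.87 from wild-type (limma adjusted p = 0.0021), under 2-fold, and in the pools labelled HDC-KO Slc16a3 rose 2.01-fold from marrow to tumor, at the edge of the threshold. That call was lost with quantile normalization (0.89) or median centring (0.97), without array 1 of HDC-KO marrow (0.90) and without array 2 of the tumor pool labelled HDC-KO (0.99). Pdk1, a pyruvate dehydrogenase kinase, measured 6.29 and 6.07, then 5.86 and 5.52 in marrow. In tumor it measured 4.87 and 4.22 in the wild-type pool, and 6.50 and 5.87 in the pool labelled HDC-KO. Wild-type tumor was the low pool and lay under background. Pdk1 was therefore at least 2.27-fold higher in the tumor pool labelled HDC-KO (1.64 ± 0.29, limma adjusted p = 0.0023) and at least 2.27-fold lower in wild-type tumor than in wild-type marrow (limma adjusted p = 0.0037). A second probe set of Pdk1 gave 1.36 for the former and -0.36, not called, for the latter. Averaged over its probe sets, Pdk1 lay under the filter and was not tested.

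Other genes of these pathways were read from lists. Of 21 tested hypoxia-response genes outside the set, 5 rose and 1 fell between the tumor pools (28.6%). That share lay near the 26% of all tested genes called there (15.5% higher, 10.5% lower). Among the 5, Car9 passed the filter through the tumor pool labelled HDC-KO alone, so it had to differ. Epas1, a second oxygen-regulated factor, was at least 3.83-fold higher, Hmox1, a heme oxygenase, rose 3.44-fold and Fam162a, a mitochondrial protein, rose 2.59-fold. From marrow to tumor 6 rose and 1 fell in wild-type and 8 rose and 2 fell in the pools labelled HDC-KO, beside 16.4% and 36.5% of all tested genes called. Hilpda, a lipid droplet protein that low oxygen induces, was at least 13.8-fold higher in wild-type tumor and at least 18.0-fold higher in the tumor pool labelled HDC-KO than in the marrow pools, where it lay under background, and it passed the filter through the tumor arrays alone. Bhlhe40, a hypoxia-induced repressor, rose 2.77-fold and 5.53-fold in the same comparisons.

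Of 10 tested glycolysis and glucose-uptake genes outside the set, 4 rose and 2 fell between the tumor pools. Among the 4, Fbp2 passed the filter through the tumor pool labelled HDC-KO alone, so it had to differ. Bpgm, which makes 2,3-bisphosphoglycerate, rose 5.68-fold and Eno3, an enolase, rose 5.62-fold, whereas Fbp1, an enzyme of glucose synthesis, fell 5.04-fold. Fbp1 was 2.43-fold higher in HDC-KO than in wild-type marrow (limma adjusted p = 0.0022). In the pentose phosphate pathway 3 of 6 tested genes fell between the tumor pools, Rpe by 2.97-fold, Rpia by 2.33-fold and Pgls by 2.04-fold, with a median log2 difference of -0.83 over the 6. These genes make ribose phosphate and reducing power from glucose. Of 8 tested glycogen genes, Gys1, a glycogen synthase, was at least 5.67-fold lower, Gbe1, the branching enzyme, fell 5.43-fold and Pygb, a glycogen phosphorylase, was at least 2.69-fold higher in the tumor pool labelled HDC-KO. Of 7 tested genes of pyruvate entry, Pdk4, a pyruvate dehydrogenase kinase like Pdk1, was at least 3.29-fold higher and Pdk3, another one, fell 2.28-fold. Pdk4 and Pygb passed the filter through the tumor pool labelled HDC-KO alone, and Epas1 through tumor arrays alone. Of the 7 tested regulators of glucose sensing and growth, Arrdc4, an arrestin-like protein that glucose induces, rose 2.40-fold. As with the set itself, 26% of all tested genes were called between these pools (15.5% higher, 10.5% lower).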

How the data were processed

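RNA of CD11b+Gr-1+ cells was labelled with biotin and hybridised to 8 Affymetrix arrays of 45101 probe sets. The deposited log2 values came from GCRMA, which the authors ran, per the submitters' processing notes. That they are log2 follows from their range, and the version of the software is not given in the sources used. Of the probe sets, 34958 had 1 gene symbol in the platform annotation, 932 several and 9211 none. Arrays were grouped by title into 4 groups of 2 technical arrays, which limits the precision. Correlations of the paired arrays were 0.995 to 0.998.

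Differences were fitted with limma 3.58.1 in R 4.3.3 on all 8174 tested genes and all 8 arrays, with 4 residual and 2.14 prior degrees of freedom, and p-values were adjusted by Benjamini-Hochberg over all of them. SE is limma's moderated standard error. A pool mean under log2 5 was raised to 5 to give the "at least" folds, and no fold is given where both were under it. Data were simulated for the tumor genotype comparison with 8174 genes, using the scatter of repeat technical arrays and no spread between pools or mice. The fit found 94 of 100 true changes of size log2 1.5 and 99 of 100 of size log2 2, and made 0 false calls. These figures bear on technical scatter alone and not on false calls for genotype.

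The genes and lists were chosen with earlier results of these data known. All members and Hdc are reported, and from each pathway list up to 3 called genes with the largest difference per comparison could be named. The array controls, the 3′ to 5′ signal and the neighbours of Ldhc were chosen after their values were seen. Same-numbered arrays did not vary together, with correlations of deviations from -0.01 to 0.06 over genes. Alternatives covered the filter, values raised to background, scaling, probe set choice, variance model, groups in the fit, the replicate block, averaged arrays and each array left out. Promoters were matched by symbol, 33 of 35 genes having an entry in RefSeq's GRCm38.p6 table. Python 3.11.15, numpy 2.4.6, pandas 2.3.3 and matplotlib 3.10.9 made the tables and figures.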

Additional observations from a re-analysis of the deposited data

Results flagged for a closer look

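For 8 members the HDC-KO minus wild-type difference was unequal in tumor and bone marrow, by limma's test of the difference itself (adjusted p under 0.05 and at least log2 1), beside 28.5% of all tested genes. The value in each case is the tumor difference minus the marrow difference on the log2 scale. It was 2.99 for Ddit4, 2.92 for Ankrd37, 2.57 for Ldhc, 2.13 for Pdk1, 1.82 for Egln3 and 1.31 for P4ha1. It was -1.98 for Hk3 and -1.51 for Ero1a. The value for Ldhc comes from its low level in HDC-KO marrow, since both tumor pools were under background. Ankrd37 was under background in both marrow pools. Ldhc and Ankrd37 each passed the filter only through the pool where it was high, so their values are descriptions. The tumor term of each value rests on the pool labelled HDC-KO, whose Hdc level was near wild-type.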

How the results depend on the processing

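Counts of called members changed by over 1.5 times under a few alternatives. In bone marrow 1 fell with values raised to log2 5, in place of 2, because Ddit4 then differed by -0.94. Between the tumor pools 3 rose with the filter at log2 7 and 2 rose with the mean of probe sets, in place of 5; with that mean Egln3 differed by 0.87 and P4ha1 by 0.71, and Pdk1 fell below the filter (28 members tested in place of 30). From marrow to tumor in wild-type, 1 fell with the filter at log2 7 and 1 with the mean of probe sets, in place of 2. In the pools labelled HDC-KO, leaving out 1 array gave 3 to 5 lower and 8 to 9 higher, with 5 lower reached without array 1 of HDC-KO marrow, where Hk1 (-1.07) and Ldhb (-1.18) also passed. Leaving out 1 array gave 5 to 6 higher between the tumor pools, the sixth being Bnip3 without array 2 of wild-type tumor. The direction reversed for Pfkp in wild-type tumor against marrow (-0.080 with the mean of probe sets, 0.41 otherwise) and for Ndrg1 in the pools labelled HDC-KO (-0.16 with that mean and -0.18 without probe sets of shared, duplicate or control type, 0.57 otherwise). The mean for Pfkp takes in probe sets under log2 5 on every array, which differed by -0.46 and -0.19. Without the excluded types, Ndrg1 was read from a probe set that differed by -0.18. Why probe sets of the same gene differed was not tested. The replicate block, tried although the numbers did not pair the arrays, left the tumor counts at 5 higher and 3 lower and changed no other count of called members. With 1 pool per group, none of these settings bears on the spread between mice.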

Other observations

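The probe sets of Ndrg1 did not share a direction between tissues. The brightest, used above, averaged higher in the tumor pool labelled HDC-KO than in HDC-KO marrow by 0.57, whereas others annotated to Ndrg1 alone differed by 0.25, -0.18, -0.96 and -0.51. Between wild-type marrow and wild-type tumor the same probe sets gave 0.06, -0.03, -0.75, -0.84 and -0.24. Between the tumor pools they gave 0.91, 0.79, 0.92, 0.36 and -0.01. The dimmest of them lay under log2 5 on every array.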
